A study of Homo sapiens with 83 samples.

Results

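The 34 genes described here carry glucose into the cell, split it to pyruvate, exchange pyruvate and lactate, and pass pyruvate into the mitochondrion, together with 3 genes that regulate these steps (TXNIP, ARRDC4 and HIF1A). They were taken by symbol from the 60237 genes of the expression table, and all 34 were found, each under 1 entry. Polyadenylated RNA was sequenced in 83 libraries of 2 human neuroblastoma cell lines, SHEP and SKNAS. The question was what activated N-MYC does to transcript levels and to their circadian oscillation. Both lines carried a constitutively expressed N-MYC-ER, which is N-MYC fused to a part of the estrogen receptor and stays inactive until 4-hydroxytamoxifen (4OHT) is given. MYC-ON cells had received 4OHT for 24 h when dexamethasone was added, and MYC-OFF cells had received the ethanol vehicle. All 4 groups had therefore the same transgene and the same dexamethasone, which sets the clocks of the cells to a common phase, and RNA was taken every 4 h, with circadian time (CT) counting the hours since dexamethasone. SHEP MYC-OFF and SHEP MYC-ON had 28 libraries each, from 2 series of 14 time points (CT24 to CT76). SKNAS MYC-OFF had 14 libraries and SKNAS MYC-ON 13 (to CT72), from 1 series, so the time points of a series come from 1 experiment and the tests measure the spread between time points. Values are TPM (transcript abundance relative to the whole library), which are scaled to gene length and to a fixed library total, and n is 28, 28, 14 and 13 in the order of the groups above unless given.

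Glycolysis begins with uptake by glucose transporters and phosphorylation by hexokinase, which traps the sugar in the cell. Phosphofructokinase then commits it to the pathway, and the lower steps from aldolase to pyruvate kinase yield ATP and pyruvate. Lactate dehydrogenase interconverts pyruvate and lactate, monocarboxylate transporters move lactate across the membrane, and the mitochondrial pyruvate carrier and pyruvate dehydrogenase lead pyruvate into oxidation, a step that pyruvate dehydrogenase kinases (PDKs) inhibit. MYC proteins bind the E-box CACGTG and are known to act on several of these genes, and so is the hypoxia factor HIF1A.

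The 83 libraries did not have the same distribution of values. The median log2(TPM + 1) over the genes with a mean of at least 1 TPM lay between 3.93 and 4.17 in all SHEP libraries but between 2.76 and 4.38 in SKNAS, where it reached 3.8 in 10 of 14 MYC-OFF and in 3 of 13 MYC-ON libraries. The SKNAS comparison is therefore given with and without this median as a covariate wherever that changes a call. Of 9 adrenergic neuroblastoma markers, 3 had a mean of at least 1 TPM in each SHEP group (HAND2, GATA3 and GATA2). PHOX2A, TH, DBH and CHGA were under 0.1 TPM in both SHEP groups. In SKNAS 7 and 6 markers reached 1 TPM without and with active N-MYC, and TH and DBH did not in either group. Of 8 mesenchymal markers, 7 or 8 reached 1 TPM in every group. No endothelial marker did. Of the 3 immune markers, PTPRC alone reached 1 TPM, in SKNAS alone, and the sum of the 3 had a median of 94.5 TPM (13.03 to 132) in MYC-OFF and of 17.8 TPM (3.13 to 59.7) in MYC-ON, with CD3E and LYZ under 0.1 TPM. Of the 4 epithelial markers, 1 reached 1 TPM in both SHEP groups, 2 in SKNAS without and 3 with active N-MYC, led by KRT18, and their summed level ranged from 603 to 1587 TPM (median 876) in SHEP MYC-OFF, 689.8 to 1189 TPM (median 913) in SHEP MYC-ON, 349.9 to 704 TPM (median 497) in SKNAS MYC-OFF and 189.7 to 296 TPM (median 239) in SKNAS MYC-ON. The part of these marker differences in the results was not tested.

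Together the 34 genes made up 1.49% ± 0.141 of all TPM in SHEP MYC-OFF (SD, n = 28), and 1.58% ± 0.175 in SHEP MYC-ON (SD, n = 28). In SKNAS they made up 1.17% ± 0.215 without (SD, n = 14) and 1.23% ± 0.217 with active N-MYC (SD, n = 13), so the sums of MYC-OFF and MYC-ON lay within 1 SD of each other in either line. GAPDH, the glyceraldehyde phosphate dehydrogenase often used as a reference, stood first in every group. In SHEP MYC-OFF its mean was 4644 ± 446 TPM (SD), followed by ENO1, the ubiquitous enolase, with 2039 ± 173 TPM, the pyruvate kinase PKM with 1791 ± 254 TPM and the aldolase ALDOA with 1194 ± 162 TPM. GAPDH did not overlap ENO1 in any of those libraries. Of the 33 pairs of neighbours in this order 17 had means closer than the larger SD, among them ENO1 and PKM, and LDHA (825 ± 132 TPM) and LDHB (774 ± 33.3 TPM), and 16 did not. At the lower end of SHEP MYC-OFF stood ALDOC (1.698 ± 0.763 TPM), PDK4 (0.307 ± 0.2099 TPM) and ARRDC4, which was listed at 0 in most SHEP libraries. The values are per gene, so the splice forms of PKM cannot be told apart.

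**Figure D1:**
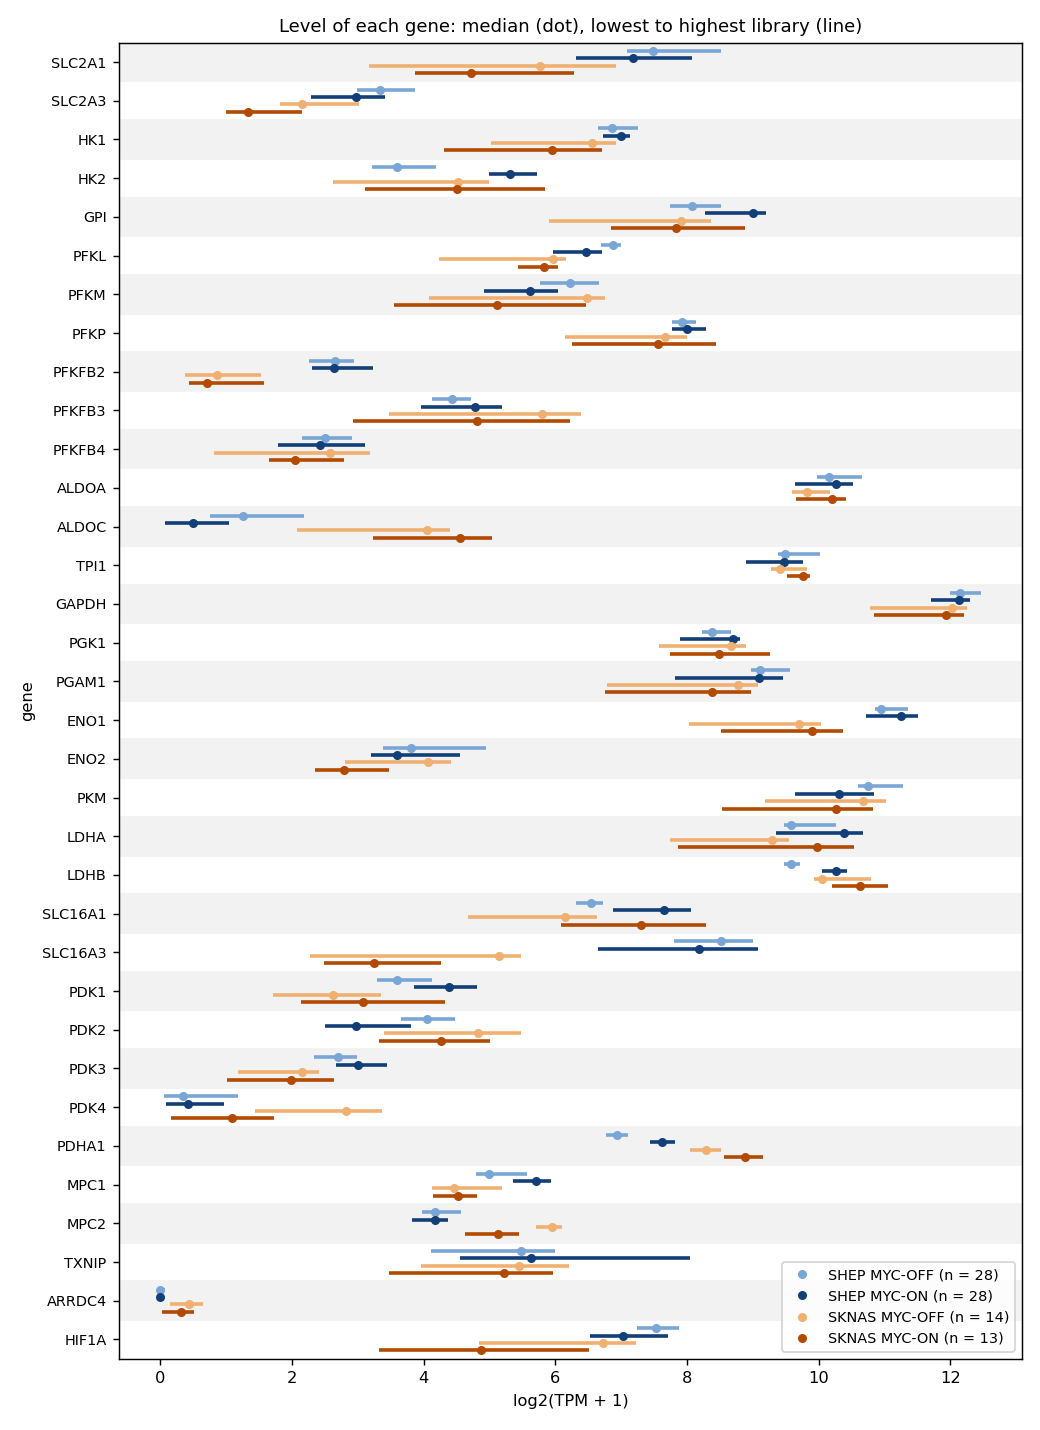
Level of each of the 34 genes as log2(TPM + 1) on the horizontal axis, with a line from the lowest to the highest library and a dot at the median for SHEP MYC-OFF (n = 28), SHEP MYC-ON (n = 28), SKNAS MYC-OFF (n = 14) and SKNAS MYC-ON (n = 13). In SHEP the lines of MYC-ON lie wholly above those of MYC-OFF for HK2, LDHB, SLC16A1 and PDHA1, and the SKNAS lines are longer than those of SHEP for most genes.

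Most of these genes differed between MYC-ON and MYC-OFF in SHEP, in both directions, and fewer did so in SKNAS. In bulk RNA fewer cells with a transcript and less of it per cell cannot be told apart. Calls needed an adjusted p (limma, Benjamini-Hochberg) no higher than 0.05 together with a log2 change of 0.15 or more, in either direction. In SHEP, 32 of the 34 genes had a mean of at least 1 TPM and were tested (PDK4 and ARRDC4 were not), and 13 were higher and 11 lower in MYC-ON. ALDOC passed that filter through MYC-OFF alone, where its level was the higher one, so its call follows in part from the filter, and without it 10 of 31 were lower. Over all 14362 genes tested, 33% were higher and 38.9% lower, so the shares of these genes (13 of 32 and 11 of 32) were near the background. At a log2 change of at least 0.66, 6 genes were higher (HK2, GPI, LDHB, SLC16A1, PDK1 and PDHA1) and 3 lower (PFKM, PDK2 and ALDOC, or 2 without ALDOC), beside 9.39% and 11.4% of all genes. In SKNAS, 32 were tested (PFKFB2 and ARRDC4 were not), and 8 were higher and 9 lower, beside 13.7% and 34.4% of 13886 genes. At 0.66 there was 1 higher (SLC16A1) and there were 7 lower (SLC2A3, PFKM, ENO2, SLC16A3, PDK4, MPC2 and HIF1A), beside 6.97% and 23.8%. With the library median as a covariate, 11 genes were higher and 7 lower in SKNAS, beside 28.3% and 26.1% of all genes, and 7 were higher by at least 0.66 in place of 1. The median log2 change was 0.02 over these 32 and -0.04 over all genes in SHEP, and -0.13 and -0.29 in SKNAS, or 0.17 and 0.01 with the covariate.

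Of the 31 genes tested in both lines 12 were called in each. LDHA, LDHB, SLC16A1, PDK1 and PDHA1 were higher with active N-MYC in both, and SLC2A3, PFKM, ENO2, SLC16A3, PDK2 and HIF1A were lower in both, although PDK2 lost its SKNAS call with the covariate. These were 5 and 6 of 31, beside 11.5% and 24.1% of the 12306 genes tested in both. With the covariate in SKNAS they were 9 and 5 of 31, beside 21.1% and 18.3%. ALDOC, with the limit on its SHEP value given above, was the 1 gene with opposite calls, beside 2.8% of all genes (3.9% with the covariate). The libraries of the 2 conditions did not overlap for HK2, LDHB, SLC16A1 and PDHA1 in SHEP, where MYC-ON lay above MYC-OFF, which 6.11% of all tested genes did. No gene of the 34 lay wholly below in SHEP (6.36% of all genes did). In SKNAS, PDHA1 lay wholly above (2.32% of all genes) and MPC2 wholly below (2.09%).

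**Figure D2:**
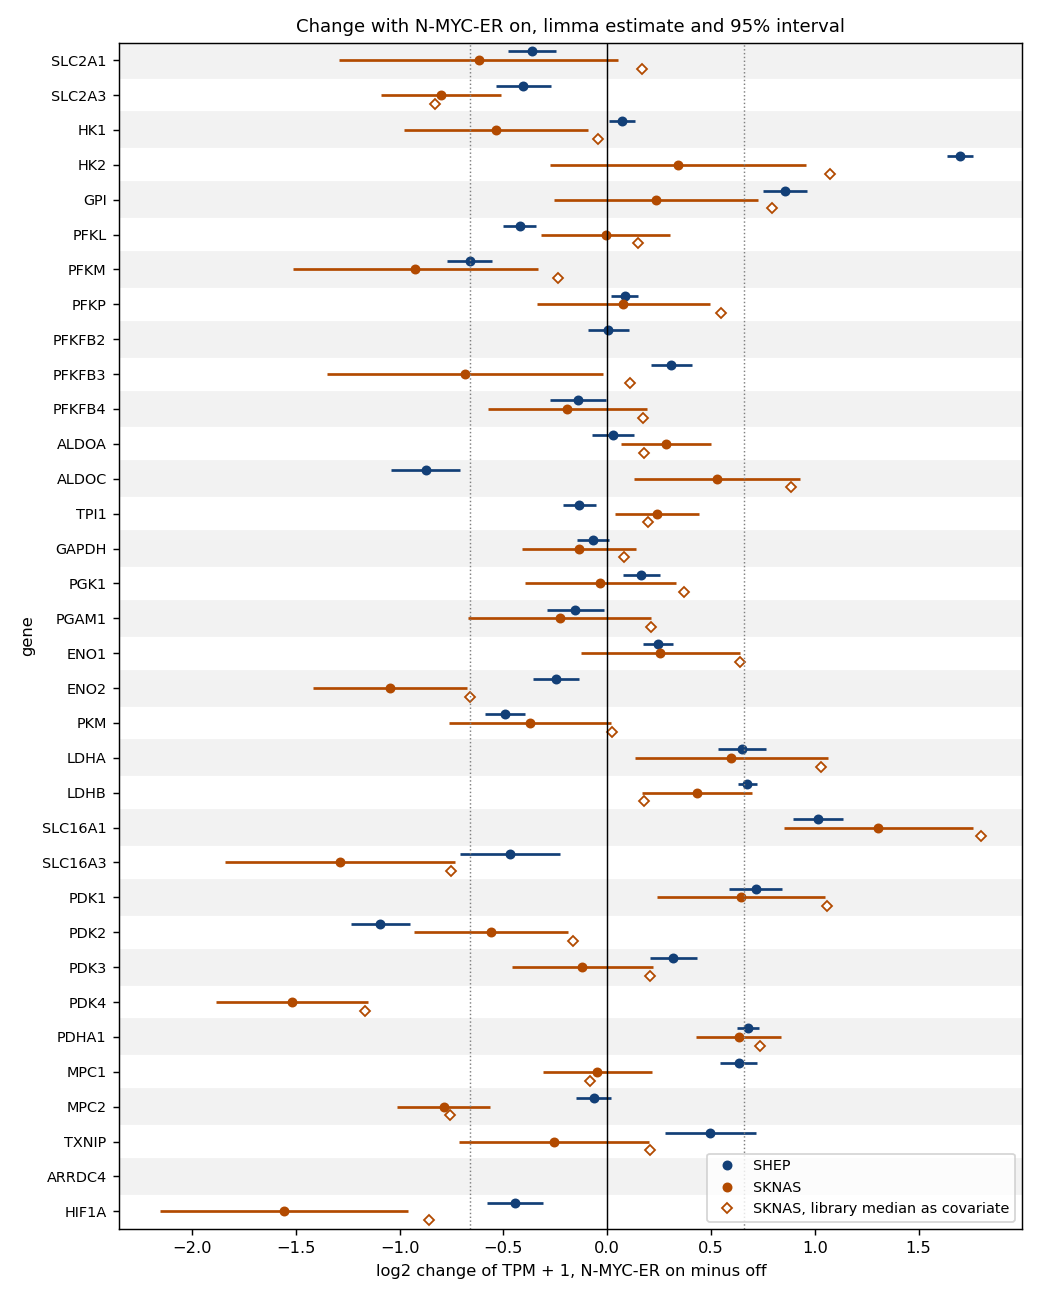
Change of each gene with N-MYC-ER on, as the limma difference in log2(TPM + 1) of MYC-ON minus MYC-OFF on the horizontal axis, for SHEP and SKNAS (dots, with 95% intervals) and for SKNAS with the library median as a covariate (open diamonds, no interval drawn). Dotted lines mark -0.66 and 0.66. The SKNAS intervals are wider than those of SHEP, and for HK2 and GPI the covariate moves the SKNAS value from 0.34 and 0.23 to 1.07 and 0.80.

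To show where the E-box lies, the bases upstream of a start site are given for genes that were higher or lower in SHEP MYC-ON. HK2 and LDHA were higher and PDK2 was lower. ALDOC was lower too, with the limit on its SHEP value given above. The windows were read from RefSeq promoters on GRCh38.p14, in the direction of the gene, and end before any annotated untranslated region, with CACGTG in capitals. The RefSeq table holds 2 windows each for HK2 and LDHA, 3 for PDK2 and 1 for ALDOC. Shown is the window of each gene that holds CACGTG, and the others of HK2, LDHA and PDK2 hold none. The start behind the HK2 window lies 1043 bases, and that of PDK2 614 bases, downstream of the first annotated start of the gene, so these windows lie within the gene. All 4 hold no annotated exon base, and HK2 lies at chr2:74834920-74835169 (+ strand), LDHA at chr11:18394313-18394559 (+ strand), PDK2 at chr17:50095101-50095284 (+ strand) and ALDOC at chr17:28576949-28577145 (- strand, in a stretch that also lies in the gene RSKR).
HK2: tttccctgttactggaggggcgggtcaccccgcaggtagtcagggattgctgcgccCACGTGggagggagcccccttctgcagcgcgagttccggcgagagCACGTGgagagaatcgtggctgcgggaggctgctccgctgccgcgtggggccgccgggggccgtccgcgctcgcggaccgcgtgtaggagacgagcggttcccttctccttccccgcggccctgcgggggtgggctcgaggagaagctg
LDHA: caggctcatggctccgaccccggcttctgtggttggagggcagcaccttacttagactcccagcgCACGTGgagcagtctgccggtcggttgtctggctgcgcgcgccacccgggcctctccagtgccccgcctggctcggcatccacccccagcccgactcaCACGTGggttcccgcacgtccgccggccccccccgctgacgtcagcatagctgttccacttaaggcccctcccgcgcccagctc
PDK2: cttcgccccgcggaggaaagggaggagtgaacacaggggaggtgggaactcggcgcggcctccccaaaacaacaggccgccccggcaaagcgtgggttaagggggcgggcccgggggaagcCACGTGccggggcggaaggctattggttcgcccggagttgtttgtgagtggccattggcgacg
ALDOC: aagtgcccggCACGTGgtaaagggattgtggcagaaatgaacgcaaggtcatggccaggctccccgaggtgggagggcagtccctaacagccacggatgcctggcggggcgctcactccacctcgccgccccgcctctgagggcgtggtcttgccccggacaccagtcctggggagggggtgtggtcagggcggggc

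Counted from the start site of the window shown, CACGTG began at -194 and -149 in HK2, at -185 and -87 in LDHA, at -129 in PDK2 and at -240 in ALDOC. The RefSeq table held windows of 300 bases (250 before to 50 after a start) for 31 of the 34 genes, all but SLC2A3, PFKFB2 and SLC16A1. CACGTG, which is its own reverse complement, was in 8 of their 63 windows (12.7%), in HK2, PFKFB3, ALDOA, ALDOC, GAPDH, LDHA, PDK2 and ARRDC4, beside 7.26% of all 35116 windows. The core of the hypoxia response element, ACGTG or GCGTG on either strand, of which ACGTG also lies within CACGTG, was in 65.1% of the windows of these genes and in 48.4% of all windows. Of the 8 genes with CACGTG, HK2, LDHA and PFKFB3 were higher in SHEP MYC-ON, PDK2 and ALDOC were lower (ALDOC with the limit above), ALDOA and GAPDH were not called and ARRDC4 was not tested.

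At the entry of the pathway HK2 stood apart. HK2 (chr2:74834127-74893359 on GRCh38, as all gene positions here), the inducible hexokinase bound to mitochondria, ranged over 8.301 to 17.2 TPM (median 11.1) in SHEP MYC-OFF and 30.9 to 51.98 TPM (median 38.7) in MYC-ON. No library of one group reached the other, the gene was higher at all 28 same-time pairs, and its log2 change of 1.70 ± 0.031 (SE, limma adjusted p = 2.9e-39) was the highest of the 32. In SKNAS it ranged over 5.18 to 30.8 TPM (median 21.96) in MYC-OFF and 7.62 to 56.7 TPM (median 21.7) in MYC-ON, the groups overlapped, and the change was 0.34 ± 0.29 (SE, limma adjusted p = 0.34). With the library median as a covariate it was 1.07 ± 0.079 (SE, limma adjusted p = 5.1e-08). Among SKNAS libraries with a median of at least 3.8, HK2 spanned 16.7 to 30.8 TPM in MYC-OFF (n = 10) and 36.3 to 56.7 TPM in MYC-ON (n = 3), which did not overlap. HK1, the hexokinase of most tissues, stayed at 119 ± 12.99 TPM and 125 ± 9.54 TPM in SHEP (change 0.07, below the 0.15 asked for) and was lower in SKNAS (-0.54, adjusted p = 0.044, and -0.05 with adjusted p = 0.69 with the covariate).

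GPI (chr19:34359480-34402413), which turns glucose 6-phosphate into fructose 6-phosphate, rose in SHEP and ranged over 213 to 366 TPM (median 269) in MYC-OFF and 310.0 to 591 TPM (median 515) in MYC-ON. It was higher at 28 of 28 pairs, although the ranges overlapped, and its log2 change was 0.86 ± 0.052 (SE, limma adjusted p = 2e-19). In SKNAS GPI spanned 58.9 to 329.7 TPM (median 239.5) and 114 to 472 TPM (median 228), with a change of 0.23 (adjusted p = 0.42) that became 0.80 (adjusted p = 2.4e-06) with the covariate. The glucose transporter SLC2A1 (GLUT1) fell in SHEP, where it ranged over 136 to 365 TPM (median 177) in MYC-OFF and 78.6 to 269.5 TPM (median 145) in MYC-ON, with a change of -0.36 ± 0.057 (SE, limma adjusted p = 2.5e-07). It spanned 7.99 to 119.9 TPM (median 53.5) and 13.5 to 76.99 TPM (median 25.5) in SKNAS and did not pass the test there (-0.62, adjusted p = 0.12). In SKNAS libraries with a median under 3.8 its means were 15.8 TPM (MYC-OFF) and 22.8 TPM (MYC-ON). In the others they were 68.8 and 63.0 TPM. SLC2A3 (GLUT3), a transporter of high affinity known from neurons, was low in both lines and fell in both on average over the time course. Late in culture this did not hold in SHEP. Over the last 3 time points its mean was 7.79 TPM in MYC-OFF and 8.80 TPM in MYC-ON of series 1, and 8.21 and 8.30 TPM in series 2. It spanned 6.96 to 13.6 TPM (median 9.14) and 3.87 to 9.63 TPM (median 6.84) in SHEP and 2.52 to 7.08 TPM (median 3.44) and 0.999 to 3.46 TPM (median 1.52) in SKNAS, where it was lower at 12 of 13 pairs with a change of -0.80 ± 0.14 (SE, limma adjusted p = 0.00022).

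Of the 3 phosphofructokinase genes, the muscle type PFKM and the liver type PFKL fell in SHEP while the platelet type PFKP did not reach a log2 change of 0.15. PFKM ranged over 53.7 to 100.1 TPM (median 73.8) in SHEP MYC-OFF and 29.1 to 65.2 TPM (median 48.2) in MYC-ON, was lower at all 28 pairs and changed by -0.66 ± 0.054 (SE, limma adjusted p = 4.1e-15). PFKL was also lower at all 28 pairs (-0.42), and PFKP changed by 0.08. In SKNAS PFKM spanned 16.01 to 107 TPM (median 88.2) and 10.8 to 87.1 TPM (median 33.7), and it was lower at 11 of 13 pairs. Its change of -0.92 ± 0.28 (SE, limma adjusted p = 0.013) became -0.24 (adjusted p = 0.037) with the library median as a covariate. PFKP was called in SKNAS with the covariate alone (0.55, adjusted p = 2.4e-05, against 0.08 without it).

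The PFKFB enzymes set the level of fructose 2,6-bisphosphate, the activator of phosphofructokinase. PFKFB3, the form with the highest kinase activity, ranged over 16.5 to 25.3 TPM (median 20.5) in SHEP MYC-OFF and 14.5 to 35.6 TPM (median 26.5) in MYC-ON and rose by 0.31 ± 0.049 (SE, limma adjusted p = 3.2e-07). In SKNAS it spanned 10.1 to 82.9 TPM (median 54.7) and 6.61 to 73.7 TPM (median 27.04), with a change of -0.69 (adjusted p = 0.081) that turned to 0.11 (adjusted p = 0.28) with the covariate. PFKFB4 was at 4.803 ± 0.775 TPM and 4.31 ± 1.06 TPM in SHEP, and PFKFB2 at 5.21 ± 0.836 TPM and 5.23 ± 0.861 TPM, and neither was called in either line.

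The abundant enzymes from aldolase to pyruvate kinase moved less than HK2. In SHEP, ENO1 (0.25) and the phosphoglycerate kinase PGK1 (0.16) rose, PKM (-0.49) and the phosphoglycerate mutase PGAM1 (-0.15) fell, and ALDOA (0.03), the triose phosphate isomerase TPI1 (-0.14) and GAPDH (-0.07) were not called. PKM was lower at all 28 pairs, with 1549.7 to 2480.2 TPM (median 1717) in SHEP MYC-OFF and 801 to 1845 TPM (median 1274) in MYC-ON, and in SKNAS it changed by -0.37 (adjusted p = 0.11). In SKNAS, ALDOA (0.29) and TPI1 (0.24) rose, and both lost the call with the covariate (adjusted p = 0.092 and 0.066), while ENO1 (0.64) and PGK1 (0.37) gained one. Genes of this group such as GAPDH, PGAM1 and PGK1 have processed pseudogenes, among which the quantification may have split reads.

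ALDOC and ENO2, the aldolase and enolase of nervous tissue, are the low members of their pairs. ALDOC spanned 0.686 to 3.54 TPM (median 1.39) in SHEP MYC-OFF and 0.0488 to 1.07 TPM (median 0.405) in MYC-ON, a difference of -0.87 that is given with no test, because the mean of MYC-ON (0.443 TPM) was under the filter of 1 TPM. In SKNAS its level was higher, with 3.22 to 20.03 TPM (median 15.6) in MYC-OFF and 8.43 to 31.8 TPM (median 22.6) in MYC-ON, and rose by 0.53 ± 0.19 (SE, limma adjusted p = 0.031). Its groups overlapped in both lines. ENO2 fell in both lines, by 0.25 in SHEP, where it spanned 9.38 to 29.8 TPM (median 13.01) and 8.21 to 22.4 TPM (median 11.03). In SKNAS it spanned 5.98 to 20.3 TPM (median 15.7) and 4.11 to 10.1 TPM (median 5.900), was lower at 12 of 13 pairs, and changed by -1.05 ± 0.17 (SE, limma adjusted p = 0.00018), or -0.66 with the covariate.

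Both lactate dehydrogenase genes rose in both lines. LDHB (chr12:21635342-21757857), the subunit known from heart, was the steadier. It ranged over 713 to 839 TPM (median 767) in SHEP MYC-OFF and 1066 to 1374 TPM (median 1232) in MYC-ON without overlap, with a change of 0.67 ± 0.023 (SE, limma adjusted p = 6e-29). LDHA (chr11:18394560-18408425), the subunit known from muscle, ranged over 713 to 1230.0 TPM (median 769) and 655 to 1636 TPM (median 1334) in SHEP, was higher at 27 of 28 pairs and changed by 0.65 ± 0.058 (SE, limma adjusted p = 6.7e-14). In SKNAS LDHB spanned 974 to 1785 TPM (median 1064) and 1178 to 2131 TPM (median 1581) (change 0.43, adjusted p = 0.01), and LDHA 214 to 751 TPM (median 629.5) and 231 to 1489.6 TPM (median 1009.6) (change 0.60, adjusted p = 0.034, and 1.03 with the covariate). The SKNAS level of LDHB went with the library median. In libraries under 3.8 its means were 1621 TPM in MYC-OFF (n = 4) and 1746 TPM in MYC-ON (n = 10). In the others they were 1035 TPM (n = 10) and 1244 TPM (n = 3). LDHB kept its SKNAS call with the covariate.

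Of the monocarboxylate transporters, SLC16A1 (MCT1, chr1:112911847-112957593), which carries lactate in either direction, rose in both lines. SLC16A3 (MCT4, chr17:82217934-82261129), the exporter of glycolytic cells, fell in both on average over the time course. SLC16A1 ranged over 78.9 to 105 TPM (median 92.2) in SHEP MYC-OFF and 117 to 267 TPM (median 199.9) in MYC-ON without overlap and changed by 1.02 ± 0.06 (SE, limma adjusted p = 6.7e-20). In SKNAS it ranged over 24.6 to 98.7 TPM (median 69.6) and 67.2 to 313 TPM (median 156). It was higher at 13 of 13 pairs although the ranges overlapped, and changed by 1.31 ± 0.21 (SE, limma adjusted p = 0.00016). This was the largest rise of the 32 genes tested in SKNAS. SLC16A3 spanned 223 to 510.0 TPM (median 366) and 99.5 to 539 TPM (median 290.2) in SHEP, overlapping widely, with a change of -0.47 ± 0.12 (SE, limma adjusted p = 0.00046). Late in culture the 2 SHEP series went apart. Over the last 3 time points of series 1 its mean was 353 TPM in MYC-OFF and 507 TPM in MYC-ON. In series 2 it was 364 and 188 TPM. In SKNAS it was far lower, with 3.82 to 43.7 TPM (median 34.3) in MYC-OFF and 4.58 to 18.2 TPM (median 8.51) in MYC-ON, and changed by -1.29 ± 0.26 (SE, limma adjusted p = 0.00092), or -0.75 (adjusted p = 0.004) with the covariate.

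At pyruvate entry the PDK genes moved apart. PDK1 (chr2:172555373-172608669), the kinase known as a HIF1A target, rose in both lines. It ranged over 8.84 to 16.6 TPM (median 11.03) in SHEP MYC-OFF and 13.5 to 26.9 TPM (median 19.8) in MYC-ON, was higher at all 28 pairs and changed by 0.72 ± 0.063 (SE, limma adjusted p = 4.4e-14). In SKNAS PDK1 ranged over 2.29 to 9.16 TPM (median 5.13) and 3.38 to 19.1 TPM (median 7.47), was higher at 12 of 13 pairs and changed by 0.65 ± 0.19 (SE, limma adjusted p = 0.012), or 1.06 with the covariate. PDK2 (chr17:50094737-50112152), the widely expressed kinase, fell in SHEP. It ranged over 11.7 to 21.2 TPM (median 15.7) in MYC-OFF and 4.64 to 12.98 TPM (median 6.85) in MYC-ON and was lower at all 28 pairs, with a change of -1.09 ± 0.07 (SE, limma adjusted p = 1.3e-18), the deepest fall of the 32. In SKNAS PDK2 spanned 9.502 to 43.5 TPM (median 27.4) and 9.03 to 31.1 TPM (median 18.1), with a change of -0.56 (adjusted p = 0.016) that lost its call with the covariate (-0.16, adjusted p = 0.091).

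PDK4 (chr7:95583499-95596516), the kinase known to rise with fasting and glucocorticoids, was close to absent in SHEP, with 0.0355 to 1.25 TPM (median 0.269) in MYC-OFF and 0.06504 to 0.962 TPM (median 0.338) in MYC-ON. In SKNAS PDK4 ranged over 1.72 to 9.31 TPM (median 6.08) and 0.119 to 2.296 TPM (median 1.121), was lower at all 13 pairs, and changed by -1.52 ± 0.17 (SE, limma adjusted p = 5e-06), or -1.17 with the covariate. PDK3 rose in SHEP (0.32, from 5.57 ± 0.756 TPM to 7.24 ± 1.31 TPM) and was not called in SKNAS (-0.12, adjusted p = 0.55).

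PDHA1 (chrX:19343893-19361718), the catalytic alpha subunit of pyruvate dehydrogenase, did not overlap between MYC-OFF and MYC-ON in either line. It ranged over 109 to 137 TPM (median 122) in SHEP MYC-OFF and 173 to 225 TPM (median 196) in MYC-ON, and over 265 to 364 TPM (median 312) in SKNAS MYC-OFF and 376 to 571 TPM (median 472) in MYC-ON. The change was 0.68 ± 0.027 (SE, limma adjusted p = 4.2e-26) in SHEP. In SKNAS it was 0.63 ± 0.10 (SE, limma adjusted p = 8.2e-05). MPC1 and MPC2 form the mitochondrial pyruvate carrier. MPC1 (chr6:166364919-166383013) rose in SHEP, with 26.8 to 46.7 TPM (median 30.8) and 40.2 to 60.2 TPM (median 51.3) and a change of 0.63 ± 0.043 (SE, limma adjusted p = 1e-17), and was at -0.05 in SKNAS (adjusted p = 0.77). MPC2 (chr1:167916675-167937072) was at -0.07 in SHEP (adjusted p = 0.14) and fell in SKNAS, where it ranged over 51.3 to 67.5 TPM (median 60.9) in MYC-OFF and 23.7 to 42.8 TPM (median 34.04) in MYC-ON without overlap, with a change of -0.79 ± 0.11 (SE, limma adjusted p = 2.5e-05).

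Of the 3 regulators, TXNIP (chr1:145992435-145996579), the arrestin-like protein that lowers glucose uptake, ranged over 16.2 to 62.5 TPM (median 43.6) in SHEP MYC-OFF and 22.5 to 263 TPM (median 48.3) in MYC-ON. Its change of 0.50 ± 0.11 (SE, limma adjusted p = 7.5e-05) in SHEP averages over a steep time course. In SKNAS TXNIP spanned 14.5 to 72.8 TPM (median 42.7) and 10.1 to 61.5 TPM (median 36.1) and was not called (-0.26, adjusted p = 0.33). Among SKNAS libraries with a median under 3.8 its means were 20.6 TPM (MYC-OFF) and 26.0 TPM (MYC-ON). In the others they were 47.8 and 55.2 TPM, so the sign went the other way in both parts. Its relative ARRDC4 had medians of 0 TPM in both SHEP groups and reached 0.563 TPM at most in SKNAS. HIF1A (chr14:61695513-61748259), whose product is controlled mostly by protein degradation, fell in both lines on average over the time course. It ranged over 151 to 235 TPM (median 184) and 91.4 to 209.8 TPM (median 129) in SHEP (change -0.45 ± 0.067 SE, limma adjusted p = 8.7e-08). In SKNAS it ranged over 27.8 to 148 TPM (median 105) and 8.98 to 90.6 TPM (median 28.3), was lower at 12 of 13 pairs and changed by -1.56 ± 0.28 (SE, limma adjusted p = 0.00036), or -0.86 with the covariate.

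Shares within a family are untouched by a factor common to all genes of a library, but in SKNAS some went with the library median (below). They were computed in each of the 11 families as a gene's part of the family's summed TPM, with no test. The share of a gene moved by at least 10 percentage points in 4 families in SHEP and in 5 in SKNAS. The share of HK2 in HK1 plus HK2 was 8.73% ± 0.959 in MYC-OFF and 23.8% ± 1.998 in MYC-ON of SHEP (SD), and 17.7% ± 2.92 in MYC-OFF and 28.6% ± 4.48 in MYC-ON of SKNAS. It was higher in MYC-ON at all 28 and all 13 same-time pairs, and only the SKNAS groups overlapped. The share of SLC16A1 in SLC16A1 plus SLC16A3 was 20.4% ± 3.07 in MYC-OFF and 42.05% ± 9.16 in MYC-ON of SHEP and 70.4% ± 8.04 in MYC-OFF and 93.99% ± 1.88 in MYC-ON of SKNAS, again higher at all 28 and all 13 pairs.

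The PDK family turned over most in SHEP. PDK2 was at 47.7% ± 5.04 in MYC-OFF and 20.8% ± 6.197 in MYC-ON. PDK1 was at 34.6% ± 4.76 in MYC-OFF and 56.8% ± 5.05 in MYC-ON. Neither gene's groups overlapped, and the leading PDK of SHEP MYC-OFF was PDK2 and that of MYC-ON was PDK1. In SKNAS PDK1 was at 12.3% ± 2.37 in MYC-OFF and 27.9% ± 5.48 in MYC-ON and PDK4 at 13.3% ± 3.11 in MYC-OFF and 3.56% ± 1.36 in MYC-ON, both without overlap, and PDK2 remained the leading gene at 66.2% ± 3.72 in MYC-OFF and 59.2% ± 5.61 in MYC-ON. MPC1 took 64.99% ± 2.92 in MYC-OFF and 75.3% ± 2.199 in MYC-ON of the 2 carrier genes in SHEP, without overlap, and 27.4% ± 4.66 in MYC-OFF and 38.8% ± 4.69 in MYC-ON in SKNAS, with overlap and higher at all 13 pairs.

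PFKP took 56.1% ± 1.996 in MYC-OFF and 65.9% ± 2.22 in MYC-ON of the 3 phosphofructokinase genes in SHEP, without overlap, and 57.6% ± 7.01 in MYC-OFF and 66.1% ± 5.07 in MYC-ON in SKNAS, where PFKM was at 22.4% ± 5.74 in MYC-OFF and 12.3% ± 3.65 in MYC-ON. ENO2, small in both lines, was at 1.83% ± 0.295 in MYC-OFF and 0.695% ± 0.197 in MYC-ON of the enolases in SKNAS, without overlap. The lactate dehydrogenases did not switch in SHEP, where LDHA was at 51.3% ± 3.88 in MYC-OFF and 50.9% ± 4.21 in MYC-ON, and both genes rose.

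**Figure D3:**
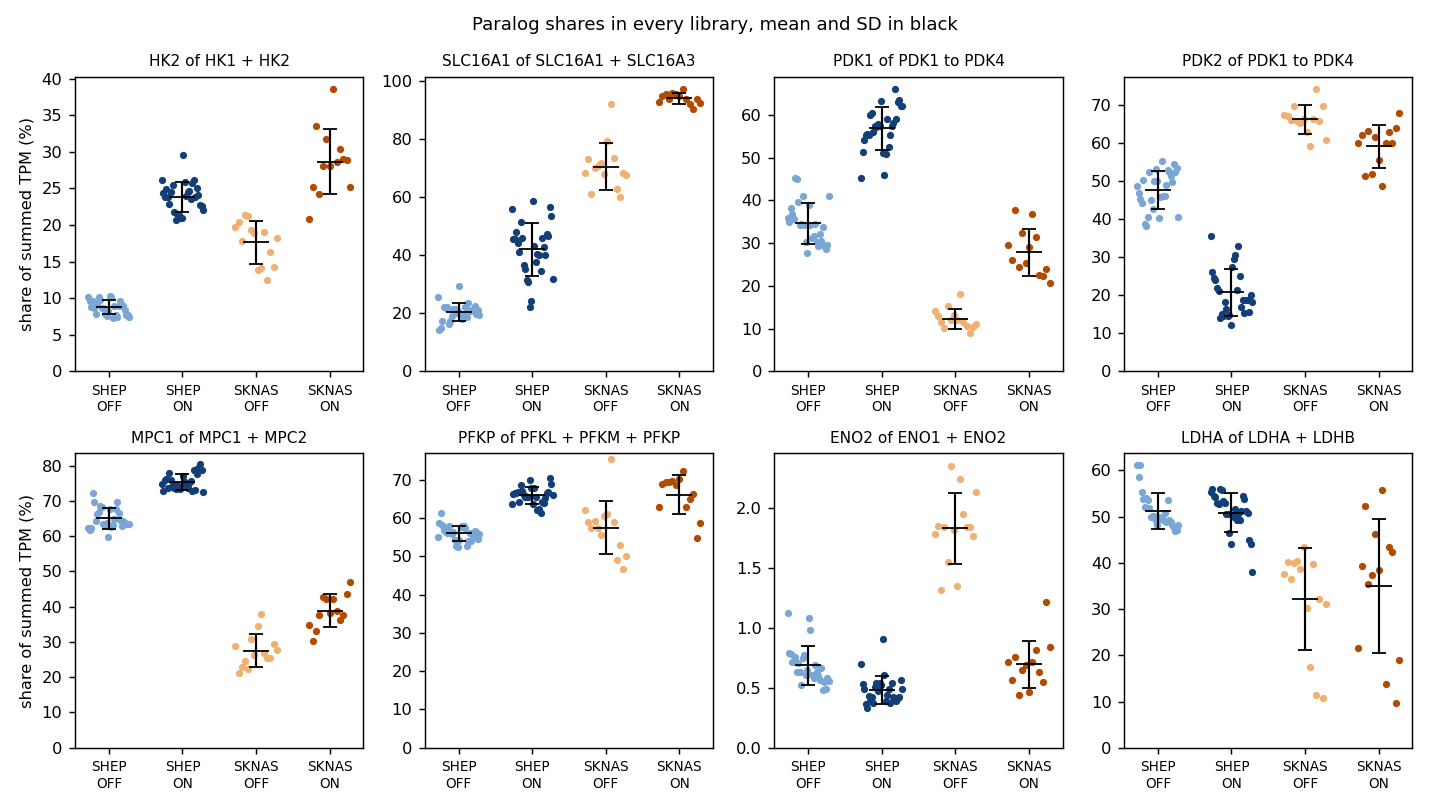
Share of a gene in the summed TPM of its family (vertical axis, percent, from 0) in every library of the 4 groups, with the mean and SD in black. For HK2, SLC16A1, PDK1 and MPC1 the MYC-ON libraries lie above MYC-OFF in both lines at every same-time pair, PDK2 falls from 47.7% to 20.8% in SHEP, and LDHA is level in SHEP and spreads from 9.78% to 55.8% in SKNAS MYC-ON.

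In SKNAS the shares of some genes went with the library median. That of LDHA spanned 10.7 to 30.2% in the 4 MYC-OFF libraries with a median under 3.8 and 31.1 to 43.5% in the 10 others. In MYC-ON it spanned 9.78 to 43.4% in the 10 libraries under 3.8 and 46.3 to 55.8% in the 3 others. That of HK2 spanned, in the same order, 12.5 to 14.3% and 16.3 to 21.4%, and 20.9 to 30.4% and 31.7 to 38.6%. In MYC-OFF the mean shares of PFKM (14.6% under 3.8 and 25.5%) and SLC2A3 (25.2% and 4.88%) differed as well. The PDK1 ranges overlapped there (10.4 to 18.2% and 9.07 to 15.4%). Within the libraries of at least 3.8, the MYC-ON shares lay above those of MYC-OFF for LDHA, HK2 (16.3 to 21.4% against 31.7 to 38.6%), SLC16A1 (59.9 to 73.5% against 95.5 to 97.1%) and PDK1 (9.07 to 15.4% against 25.4 to 37.8%). The share of LDHB, which is the rest, was accordingly highest in the libraries of low median.

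**Figure D4:**
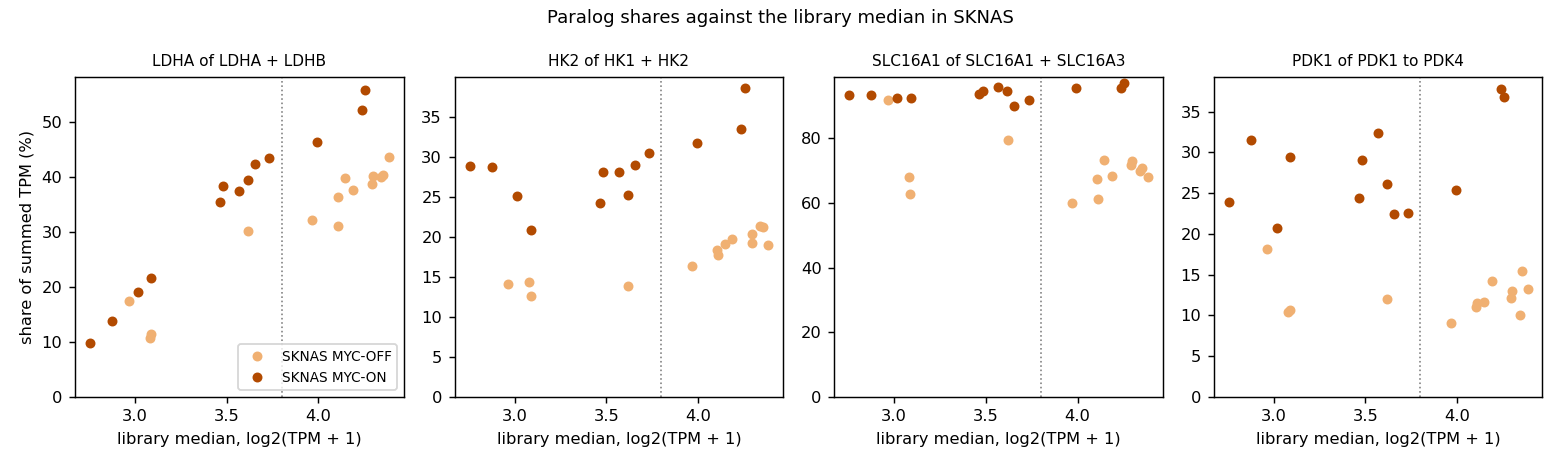
Share of LDHA, HK2, SLC16A1 and PDK1 in their families (vertical axes, percent, from 0) against the median log2(TPM + 1) of the library (horizontal axis) in SKNAS MYC-OFF (n = 14) and MYC-ON (n = 13), with a dotted line at 3.8. The shares of LDHA and HK2 are lower in libraries under 3.8 than in the others of the same condition. For HK2, SLC16A1 and PDK1 the MYC-ON points lie above MYC-OFF points of like median.

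The effect of N-MYC differed between the lines for 10 of the 33 genes tested by the interaction, with the same limit on p and a difference of 0.66 or more. ALDOC, PDK4 and PFKFB2 had a mean under 1 TPM in 1 or both groups of a line and passed the filter through the others. Without these 3 the calls were 0 higher and 8 lower of 30, beside 5% and 16.1% of 14870 genes. That background, here and with the covariate below, still holds genes under 1 TPM in a group. Over all 33 genes, which is the like count, 1 was higher and 9 were lower. Those 8 were HK2 (-1.35), PFKFB3 (-0.99), ENO2 (-0.80), SLC16A3 (-0.82), MPC1 (-0.68), MPC2 (-0.72), TXNIP (-0.75) and HIF1A (-1.11). ALDOC (1.40) and PDK4 (-1.63) are given with no test. With the library median as a covariate 2 of the 30 were higher (SLC16A1 and PDK2) and 3 lower (HK2, MPC1 and MPC2), beside 6.61% and 7.34%, so HK2, MPC1 and MPC2 were called both ways. For PDHA1 and LDHA no difference was found, and the 95% intervals of the difference were -0.17 to 0.08 and -0.37 to 0.27.

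The lines also differed in level before N-MYC was activated. Between the MYC-OFF groups, 4 of 31 genes were higher in SKNAS by at least 0.66 and 9 lower, beside 18.7% and 31.8% of 14926 genes. With the library median as a covariate 6 of 31 were higher and 7 lower, beside 3318 and 3617 of the 14926. The counts of 31 leave out PDK4 and PFKFB2, which had a mean under 1 TPM in 1 of the lines and passed the filter through the other. Such genes were not left out of the 14926, nor of the 14620 below. The differences that follow are without the covariate. SLC16A3 differed most (-3.88 ± 0.17 SE, limma adjusted p = 1.2e-19), and SLC2A1 was lower as well (-2.13 ± 0.18 SE, limma adjusted p = 3.1e-12). Above SHEP stood ALDOC (2.47 ± 0.15 SE, limma adjusted p = 3.6e-16). MPC2 (1.72) and PDHA1 (1.31) were higher too, and ENO1 (-1.49) was lower. With no test, PDK4 stood at 0.307 ± 0.2099 TPM in SHEP and 5.63 ± 2.58 TPM in SKNAS, and PFKFB2 at 5.21 ± 0.836 TPM and 0.931 ± 0.503 TPM. Between the MYC-ON groups 3 of 30 were higher and 15 lower, beside 15.8% and 43.6% of 14620 genes, again without those under 1 TPM in a line (ALDOC and PFKFB2), with SLC16A3 at -4.69. With the covariate the 15 became 7. Each line is 1 lineage of cells grown in its own series, with its own level of N-MYC-ER. Line, series and that level cannot be told apart, here or in the interaction.

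Over culture time the SHEP genes drifted, and drifted differently with active N-MYC. The slope of log2(TPM + 1) per 24 h was called with the same limits, 0.05 on p and 0.15 on its size. In SHEP MYC-OFF, TXNIP rose and 12 genes fell, beside 2.66% and 4.69% of all genes. SLC2A1 fell most (-0.44 per 24 h). Without series 1 the count that fell dropped from 12 to 1, and without series 2 it was 15. In SHEP MYC-ON, 6 rose and 14 fell, beside 16.5% and 29.8%. Those that rose were TXNIP (1.38), HIF1A (0.37), SLC2A3 (0.30), PDK1 (0.27), PFKFB4 (0.18) and PDK3 (0.15), and the steepest falls were SLC2A1 (-0.61), PGAM1 (-0.46), PKM (-0.39) and PFKFB3 (-0.39).

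TXNIP went from 22.5 TPM at CT24 to 263 at CT76 in series 1 of SHEP MYC-ON and from 22.8 to 176 in series 2. In MYC-OFF it went from 16.6 to 60.2 and from 20.6 to 62.5 TPM, so both series rose in either condition, more so in MYC-ON. HIF1A went from 127 to 209.8 and from 110.4 to 151 TPM in MYC-ON, and from 216 to 167 and from 176 to 174 in MYC-OFF. At CT24 MYC-ON was the lower condition in both series, and at CT76 it was the higher one in series 1 and the lower one in series 2. The slopes of the 2 conditions differed for 11 genes, 6 higher in MYC-ON and 5 lower, beside 13.7% and 23.3% of all genes. Steeper upward were TXNIP (0.81 ± 0.13 SE, limma adjusted p = 8.6e-07), HIF1A (0.51 ± 0.062 SE, limma adjusted p = 3.2e-09), SLC2A3 (0.49), PDK1 (0.39), PFKFB4 (0.35) and PDK3 (0.22). Steeper downward were PFKFB3 (-0.32), SLC16A1 (-0.32), PDK2 (-0.31), PGAM1 (-0.30) and PKM (-0.20). The 6 became 4 without series 1 and 12 without series 2, and the 5 became 8 without series 1 and 3 without series 2. No medium change is described for these cultures, and the part of the medium in the drift was not tested.

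**Figure D5:**
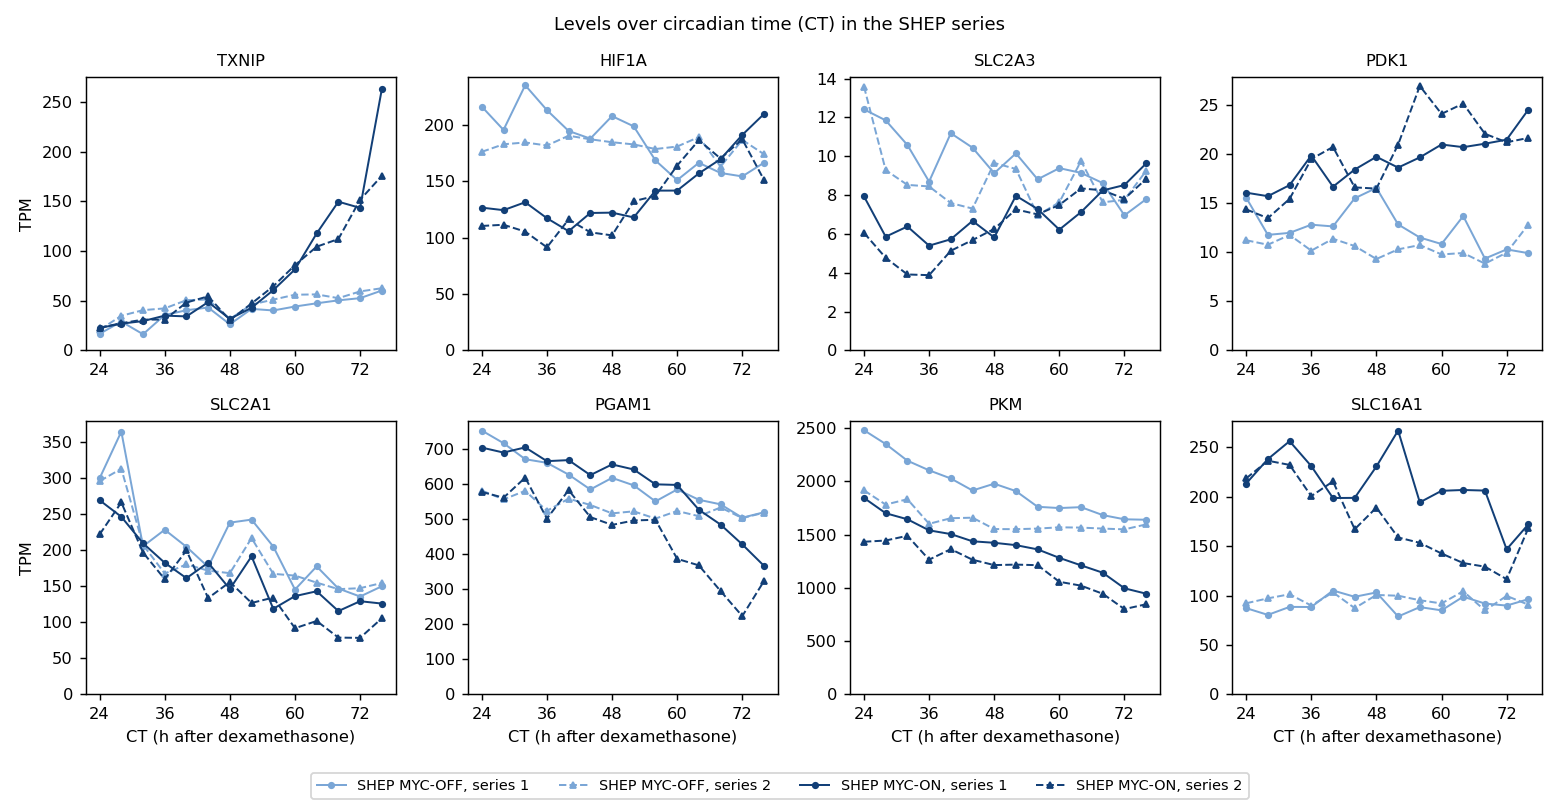
TPM (vertical axes, from 0) against CT in hours after dexamethasone for 8 genes in the 2 series of SHEP MYC-OFF and SHEP MYC-ON (circles and solid lines for series 1, triangles and broken lines for series 2). TXNIP climbs after CT48 in MYC-ON to 263 and 176 TPM at CT76, and SLC16A1 stays above MYC-OFF throughout. HIF1A and SLC2A3 start lower in MYC-ON. Late, both pass the MYC-OFF level in series 1 and lie near it in series 2.

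In SKNAS no trend of the 34 genes was called by limma. In SKNAS MYC-OFF 0% of all genes were called. There 13 of the 32 tested had an unadjusted p under 0.05, all of them falling, beside 36.4% of all genes, and the median slope was -0.37 over the 32 and -0.31 over all genes. The 4 MYC-OFF libraries with a median under 3.8 were those of CT52, CT56, CT64 and CT72. This fit therefore cannot tell a fall over time from a low library median. In SKNAS MYC-ON 0.112% of genes were called, and 2 of 32 had such a p, beside 6.08% of all genes. In MYC-OFF after rescaling, 0 were called and 8 of 32 had such a p (28.1% of all genes). With the library median as a covariate 0 were called and 7 of 32 had one (8.28%). In the 10 MYC-OFF libraries with a median of at least 3.8, a restriction chosen after seeing the data, 0 were called and 14 of 33 had one (17.6%).

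No 24 h rhythm was called for any of these genes in any group by the limma F test with a fixed period of 24 h and a linear trend. Over all genes 0.0491% were called in SHEP MYC-OFF and 0.014% with active N-MYC, and 0% and again 0% in the SKNAS groups. At an unadjusted p under 0.05 there were 6 of 32 tested in SHEP MYC-OFF (SLC2A1, HK2, PFKM, PFKFB3, ENO2 and SLC16A3), beside 7.84% of all genes. In SHEP MYC-ON there were 3 of 31 (ENO2, LDHB and PDK1), beside 6.46%. In SKNAS there were 0 of 32 in each group, beside 0.446% and 0.344%. These shares are under the 0.05 of genes that such a p gives without any rhythm, so the SKNAS test could hardly find one. The paper, using the ECHO algorithm with a range of periods and a second SKNAS series, reported oscillating genes in both lines.

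The neighbouring pathway genes, 81 in 8 lists, moved in both directions too. In SHEP the lists with the most genes higher were the pyruvate dehydrogenase and anaplerosis genes (7 higher and 2 lower of 11 tested, median change 0.49) and the shuttles that carry reducing equivalents and amino acids into mitochondria (6 higher, 0 lower of 8, median 0.38), beside the 33% and 38.9% of all genes. In SKNAS the same lists had 2 higher and 3 lower of 11 and 3 higher and 1 lower of 8, beside 13.7% and 34.4% of all genes. With the library median as a covariate they had 7 higher and 2 lower, and 3 higher and 0 lower, beside 28.3% and 26.1%. The other transporters of glucose and monocarboxylates had 2 higher and 4 lower of 8 in SHEP and 1 higher and 4 lower of 8 in SKNAS (3 and 3 with the covariate). Of the 11 hypoxia targets tested outside glycolysis, 4 were higher and 5 lower in SHEP, and 1 higher and 4 lower in SKNAS (5 and 3). Pentose phosphate genes had 4 higher and 1 lower of 7 in SHEP and 1 of each in SKNAS (4 and 2), and glycogen genes 4 higher and 2 lower of 8 in SHEP and 0 higher and 1 lower in SKNAS (5 and 1). The other genes listed with glycolysis, not all of them isoforms of its enzymes, had 3 higher and 3 lower of 7 in SHEP. In SKNAS they had 0 higher and 2 lower of 5 (1 and 2). The regulators had 1 higher and 3 lower of 9 in each line (2 and 1 in SKNAS with the covariate).

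Changes of at least 0.66 in the same direction in both lines were found for 2 that rose and 8 that fell of the 65 tested in both, beside 4.1% and 7.3% of all genes. RPIA, the ribose 5-phosphate isomerase, rose by 1.66 in SHEP and 1.59 in SKNAS. GPD1L, a glycerol 3-phosphate dehydrogenase, rose by 1.46 and 1.07. The 8 that fell were PDP1, the phosphatase that reactivates pyruvate dehydrogenase (-0.81 and -1.02), the transporters SLC2A6 (-1.14 and -0.90), SLC2A8 (-0.68 and -0.80) and SLC2A10 (-1.12 and -1.03), UGP2 of glycogen synthesis (-0.94 and -0.74), and the hypoxia targets ADM (-1.43 and -1.55), BNIP3L (-1.20 and -1.34) and P4HA2 (-1.47 and -1.53). With the covariate in SKNAS, 5 rose and 4 fell in both, beside 5.92% and 4.58%. RPIA (1.62), GPD1L (1.52), SLC2A10 (-0.78), ADM (-1.53), BNIP3L (-0.83) and P4HA2 (-1.20) were still past 0.66 in SKNAS then, and PDP1 (-0.50), SLC2A6 (-0.55), SLC2A8 (-0.57) and UGP2 (-0.58) were not.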

How the data were processed

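RNA sequencing had been performed on 83 libraries of SHEP and SKNAS cells. Reads had been quantified by the authors using Salmon 1.3.0 and Gencode 35 (GRCh38), and Tximport 1.12.3 brought them to gene level. The deposited values are TPM, which sum to 1000000 per library and keep no read depth. The count model of the study was therefore replaced by limma 3.58.1 (R 4.3.3) on log2(TPM + 1). Each cell line was fitted alone, CT entering as a factor, over genes with a mean of at least 1 TPM, and p-values were adjusted by Benjamini-Hochberg over all genes tested. Calls needed an adjusted p no higher than 0.05 and a log2 change of 0.15 or more (0.66 for interaction and line contrasts). Trends used CT as a line and rhythms a 24 h cosine and sine. Fold changes on log2(TPM + 1) understate those of low genes. Genes were named in full where they passed 0.66 in either line or in the interaction, or differed by 2 log2 units between lines, or where a family's share moved by 10 points. 1 marker of the adrenergic list and 1 of the immune list are not reported here. The members and lists were chosen with earlier results of these data known. Alternatives were a pseudocount of 0.1, no filter on low values, rescaling by the median of ratios, the library median as a covariate, SKNAS libraries with a median of at least 3.8, a replicate block and leaving out each SHEP series. The scripts were tested on simulated data with known changes. Gene coordinates were taken from Gencode 44 and promoter windows from RefSeq (GRCh38.p14).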

Additional observations from a re-analysis of the deposited data

Results flagged for a closer look

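The N-MYC effect differed between SKNAS and SHEP, by the interaction test, for 10 genes. The difference in log2 change was 1.40 for ALDOC, -1.35 for HK2, -0.99 for PFKFB3, -0.80 for ENO2, -0.82 for SLC16A3, -1.63 for PDK4, -0.68 for MPC1, -0.72 for MPC2, -0.75 for TXNIP and -1.11 for HIF1A. ALDOC and PDK4 had a mean under 1 TPM in 1 or both SHEP groups and passed the filter through the others, so their values are no support for a difference. With the library median as a covariate the differences of PFKFB3 (-0.32), ENO2 (-0.49), SLC16A3 (-0.41), TXNIP (-0.39) and HIF1A (-0.55) were under 0.66.

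The slope over culture time in SHEP differed between MYC-ON and MYC-OFF, by the test of the difference, for 11 genes. Per 24 h it was 0.81 for TXNIP, 0.51 for HIF1A, 0.49 for SLC2A3, 0.39 for PDK1, 0.35 for PFKFB4, 0.22 for PDK3, -0.32 for PFKFB3, -0.32 for SLC16A1, -0.31 for PDK2, -0.30 for PGAM1 and -0.20 for PKM.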

How the results depend on the processing

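Of the counts over alternatives 138 stayed within 1.5 times and 36 did not. Of the changes of single genes 818 kept direction and side of the threshold, 116 lost the call, 24 gained one and 65 without a call moved. For the trends and the level contrasts between lines only genes called in the main fit were counted, so none could gain a call there. A further 9, called in the main fit or only in the alternative, changed sign. Of the shares 71 stayed within 1 SD and 7 did not. In SKNAS MYC-ON against MYC-OFF, 8 genes were higher and 9 lower. Rescaling by the median of ratios gave 13 higher, and 7 higher and 4 lower by at least 0.66 (1 and 7 before). The library median as a covariate gave 7 higher by at least 0.66, and a pseudocount of 0.1 gave 2. The libraries with a median of at least 3.8 gave 2 higher and 2 lower with CT as a factor, the same at 0.66, which leaves 1 residual degree of freedom, and 5 higher at 0.66 with CT as a line, an alternative chosen after seeing the data. Over all genes the higher count of 1903 became 3663, 3924, 455 and 2983 under rescaling, covariate and these 2 restrictions, and the lower count of 4772 became 799 with CT as a factor. For the difference between lines, over all 33 genes past the filter, 1 higher became 3 under rescaling, covariate and restriction and 4 with CT as a line, and 9 lower became 4 under each of them. Over all genes 743 became 1296 under rescaling, and 2388 became 1340, 1091, 895 and 1202. Between lines, again over all genes past the filter, rescaling gave 8 higher for 5 in MYC-OFF, and 10 lower in MYC-ON, for 16, which became 8 with the covariate and 7 with the restriction.

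Signs changed for PGK1 in SKNAS (-0.03, to 0.32 rescaled, 0.37 with the covariate and 0.38 restricted with CT as a line), PDK1 in the difference between lines (-0.07 to 0.67 restricted with CT as a line), and in SKNAS against SHEP with N-MYC-ER on HK2 (-0.85 to 0.25 with the covariate and 0.26 restricted), LDHA (-0.76 to 0.11) and TXNIP (-0.84 to 0.56 and 0.41). The cause was not tested. The share of PDK1 in SKNAS rose by 21.2 points in place of 15.6 when restricted. Leaving out 1 SHEP series gave 1 to 15 falling genes in MYC-OFF (12 with both), 4 to 12 steeper upward (6 with both) and 3 to 8 steeper downward slopes (5 with both) in MYC-ON.

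With a replicate block of the series, which the labels number and whose difference in MYC-OFF correlated with that in MYC-ON across genes (r = 0.489, 14362 genes), 13 genes were higher and 11 lower in SHEP, as without it. SKNAS has 1 series, so no series block could be fitted there, and CT as a factor already pairs MYC-ON with MYC-OFF at each time point. TPM keep no depth, so no counting error can be given for low genes such as ALDOC or PDK4 in SHEP.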
